A study of Arabidopsis thaliana with 2 samples.

Results

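Downstream-only MHSs were the MNase hypersensitive sites (MHSs) of replicate 1 whose midpoint lay 1 to 1000 bp downstream of the TTS, the annotated end, of a protein-coding gene. The midpoint also had to lie outside every gene body and not within 1000 bp upstream of the TSS of any gene. Of the 70046 MHSs of replicate 1, 6654 (9.50%) met this rule. In the replicate 2 list the rule kept 4316 of 49934 MHSs (8.64%). Micrococcal nuclease (MNase) cuts DNA that nucleosomes do not protect. MH-seq maps the short pieces it frees at low dose, and an MHS is a stretch rich in them. Both libraries came from 2-week-old seedlings of Arabidopsis thaliana Col-0, the common laboratory accession, grown without treatment, and they form 1 group with no contrast between conditions. Whole seedlings were used, so a site open in a few cell types and a site weakly open in all cells cannot be told apart. Each MHS is listed by its position alone, with no read count, so the depth behind a single MHS is unknown here. The study made the second library as a biological replicate, while the labels do not say which plants went into each.

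A gene end is where the transcript is cleaved and polyadenylated and where RNA polymerase II is released. In plants the cleavage is guided by A-rich and U-rich signals, of which AATAAA is the best known. DNA beyond a gene end can also hold enhancers of that gene, or the start of an antisense RNA. Where 2 neighbouring genes face each other end to end (convergent), such DNA has a TTS on either side. Where they point the same way (tandem), it has a TTS on one side and, further off, the promoter of the next gene on the other.

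The sequences below, taken from the TAIR10.1 genome on its plus strand, show what these sites look like. Capitals mark each TGGGCC (or its complement GGCCCA) and each CACGTG, the 2 of the 8 motifs searched whose frequency had the largest ratio between sites that recurred in replicate 2 and downstream DNA with no MHS. TGGGCC is the core of the site II element that TCP factors bind, and CACGTG is the G-box that bHLH and bZIP factors bind. The first pair were the least A/T-rich members of 100 to 300 bp that overlapped replicate 2, between convergent and between tandem genes. They lay 189 bp beyond the end of the brassinosteroid receptor gene BRL1 (AT1G55610, chr1:20779216-20779392, 55.4% A/T) and 742 bp beyond the end of AT1G64385 (chr1:23902942-23903104, 49.1% A/T).
BRL1: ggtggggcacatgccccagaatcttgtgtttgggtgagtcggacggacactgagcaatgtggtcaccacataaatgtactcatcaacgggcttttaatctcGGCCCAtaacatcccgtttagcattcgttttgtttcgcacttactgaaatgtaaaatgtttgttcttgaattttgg
AT1G64385: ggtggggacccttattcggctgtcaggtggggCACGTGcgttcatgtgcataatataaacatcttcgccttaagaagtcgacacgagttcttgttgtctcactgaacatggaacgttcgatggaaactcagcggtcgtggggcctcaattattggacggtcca
The next pair were the most A/T-rich members by the same rule. They lay 74 bp beyond the thaumatin-family gene AT1G20030 (chr1:6947366-6947471, 89.6% A/T) and 567 bp beyond the late-embryogenesis-abundant-family gene AT5G22870 (chr5:7646286-7646386, 84.2% A/T), and neither held a capitalised hexamer.
AT1G20030: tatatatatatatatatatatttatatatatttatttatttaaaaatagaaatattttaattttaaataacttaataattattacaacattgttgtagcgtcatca
AT5G22870: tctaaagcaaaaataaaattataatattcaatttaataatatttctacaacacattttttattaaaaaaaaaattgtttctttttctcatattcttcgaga
The last 4 were chosen after the motif counts were seen. They are the midpoint base and 50 bp on either side of it in the longest members of at most 300 bp that overlapped replicate 2 and held TGGGCC (AT3G12840, convergent, chr3:4085222-4085322, and AT1G62370, tandem, chr1:23073763-23073863) or CACGTG (DML2, convergent, chr3:3081145-3081245, and EMB2754, tandem, chr4:17271658-17271758). DML2 is a DNA demethylase of the DEMETER family, and the window beyond EMB2754, a vacuolar sorting protein gene, held both hexamers.
AT3G12840: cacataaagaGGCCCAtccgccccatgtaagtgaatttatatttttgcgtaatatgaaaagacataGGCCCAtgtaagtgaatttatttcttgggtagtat
AT1G62370: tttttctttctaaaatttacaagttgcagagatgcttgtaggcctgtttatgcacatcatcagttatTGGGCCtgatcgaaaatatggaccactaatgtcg
DML2: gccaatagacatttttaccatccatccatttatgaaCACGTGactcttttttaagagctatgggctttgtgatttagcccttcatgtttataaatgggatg
EMB2754: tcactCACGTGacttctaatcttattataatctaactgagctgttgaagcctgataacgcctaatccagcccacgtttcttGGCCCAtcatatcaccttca

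The 6654 members were spread over all 5 chromosomes, with 1777, 1061, 1229, 998 and 1589 on chromosomes 1 to 5. The rule left 6.04 Mb of DNA, 5.07% of the 5 chromosomes, so downstream-only MHSs stood at 1101 midpoints per Mb. Upstream-only MHSs, chosen by the mirror rule (1 to 1000 bp upstream of a protein-coding TSS, outside gene bodies and not within 1000 bp downstream of any TTS), numbered 15837 and stood at 1579 per Mb. The density ratio was 0.698 (exact conditional 95% interval 0.678 to 0.718) and lay below 1 on 5 of 5 chromosomes. In replicate 2 the densities were 714 per Mb downstream and 1102 per Mb upstream, a ratio of 0.648. Downstream-only DNA was thus less dense in MHS midpoints than upstream-only DNA, but denser than DNA over 1 kb from any gene end or start (766 per Mb in replicate 1 and 519 in replicate 2) and than gene bodies (317 and 247 per Mb). These counts include sites that reached into a gene body. In replicate 1 these were 17.0% of downstream-only and 35.9% of upstream-only MHSs, and no density is given without them.

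Members lay at a median of 334.5 bp from the TTS (quartiles 141 and 608.75 bp). Their density was nearly flat over the flank, at 1195, 1107, 999.7 and 1005 midpoints per Mb in the successive 250-bp steps of the flank in replicate 1. In replicate 2 it was 747, 730, 637 and 711 per Mb. The upstream-only profile had another shape, with 2342 per Mb in the first 250 bp before the TSS and 1215, 1204 and 1133 per Mb beyond it. The excess over downstream-only DNA was therefore largest next to the TSS, where the 50 bp nearest the start held 3313 midpoints per Mb, and beyond 250 bp the upstream density of replicate 1 was 1.1 to 1.2 times the downstream one. MHSs covered 20.4%, 20.2%, 18.6% and 18.5% of the bases in the downstream steps, against 49.5%, 25.9%, 23.3% and 21.9% in the upstream ones. The outer limit of the rule fell on no visible edge: replicate 1 held 953 midpoints per Mb at 951 to 1000 bp from a TTS, just inside it, and 1002 per Mb in the next 50 bp, just outside it.

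**Figure D1:**
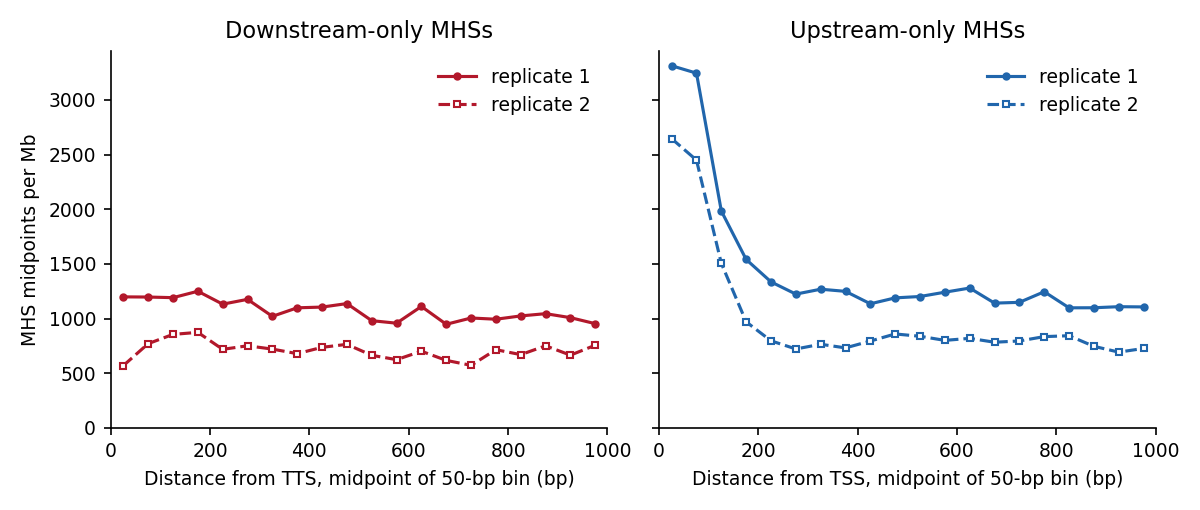
MHS midpoints per Mb (y axis) in 50-bp bins of distance (x axis, bp), downstream of the TTS for downstream-only MHSs (left, red) and upstream of the TSS for upstream-only MHSs (right, blue); solid lines are replicate 1 and dashed lines replicate 2. The downstream curve stays between 947 and 1249.6 per Mb in replicate 1 and between 569 and 873 per Mb in replicate 2. The upstream curve of replicate 1 starts at 3313 per Mb and drops within 250 bp.

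The rule was proposed as keeping sites mostly between convergent genes, and the annotation did not bear this out. Of the 6654 members, 2933 (44.1%) lay between convergent genes, 3720 (55.9%) between tandem genes and 1 at a chromosome end. In replicate 2 the split was 1888 (43.7%), 2427 (56.2%) and 1. Convergent DNA was also slightly less dense in members, at 1051 per Mb against 1145 per Mb in tandem DNA, a ratio of 0.918 (95% interval 0.875 to 0.964) in replicate 1 and 0.906 (0.853 to 0.963) in replicate 2. Convergent members sat closer to the gene end, at a median of 264 bp against 390 bp for tandem members, and in shorter gaps, with a median gap of 1482 bp against 2512 bp. Of the convergent members, 2113 (72.0%) lay between 2 protein-coding genes and 1374 (46.8%) lay within 1000 bp of both TTSs. In length (medians of 120 and 119 bp) and A/T content (70.6% and 70.8%) convergent and tandem members lay close together, and in replicate 2 the lengths were 180 and 173 bp.

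Not every pair of facing genes had a site between them. The genome held 3244 gaps between convergent protein-coding neighbours, with a median of 303.5 bp between the TTSs, and 1155 of these gaps (35.6%) held an MHS midpoint in replicate 1 and 885 (27.3%) in replicate 2. Of the 877 gaps of at most 100 bp, 29 (3.31%) held a midpoint in replicate 1 and 15 (1.71%) in replicate 2. Of the 320 gaps over 2000 bp, 278 (86.9%) did so in replicate 1 and 230 (71.9%) in replicate 2. The share grew with each step in gap size in both libraries, and a longer gap also offers more bases. It reached 47.8% and 34.9% at 501 to 750 bp.

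**Figure D2:**
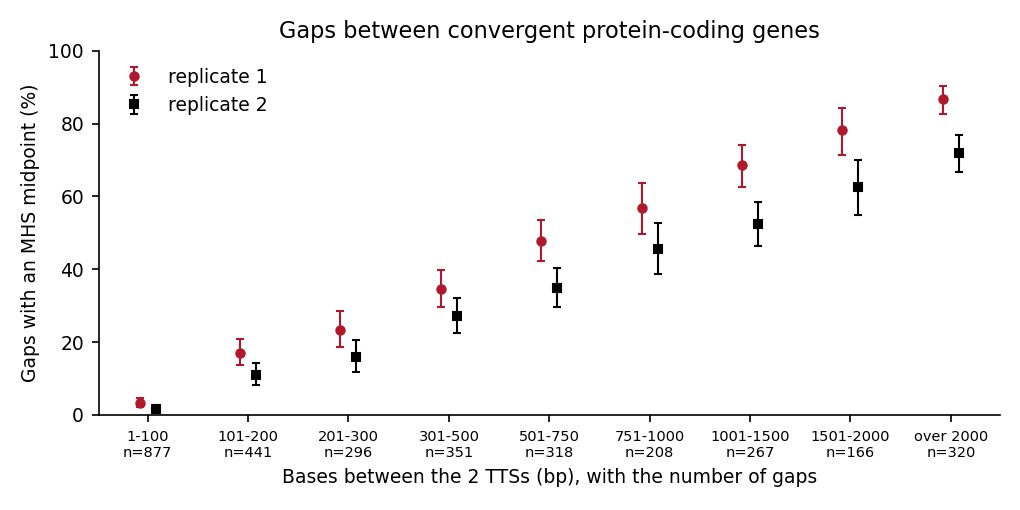
Share of gaps between convergent protein-coding genes that held an MHS midpoint (y axis, %) by the number of bases between the TTSs (x axis, bp, with the number of gaps); red circles are replicate 1, black squares replicate 2, and bars exact 95% binomial intervals. The share runs from 3.31% to 86.9% in replicate 1 and from 1.71% to 71.9% in replicate 2.

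Downstream-only MHSs were short. Their median length was 120 bp (quartiles 72 and 241 bp, range 38 to 1451 bp), against 185 bp for upstream-only MHSs. Shortness was not particular to gene ends. Distal MHSs, those over 1 kb from any gene end or start, had a median of 121 bp, and 42.4% of them were at most 100 bp long. Sites of at most 100 bp made up 42.8% of the downstream-only MHSs (2850 of 6654) and 30.7% of the upstream-only MHSs (4857 of 15837), a difference of 12.2 percentage points (95% interval 10.8 to 13.6, two-sided Fisher's exact test, p = 1.28e-67), and the sign was the same on 5 of 5 chromosomes. In replicate 2 the downstream-only median was 176 bp, the upstream-only median 206 bp, and the difference in short sites 4.03 percentage points. The classes also differed in how many sites straddled a gene boundary, which longer sites do more readily. Of the downstream-only MHSs, 1133 (17.0%) reached into a gene body and had a median of 244 bp, while 5684 upstream-only MHSs (35.9%) did so with a median of 305 bp. Among sites wholly outside gene bodies the medians were 108 bp downstream and 111 bp upstream, and the difference in short sites was 1.41 percentage points and no longer passed the test.

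In replicate 2 an MHS overlapped 3706 of the 6654 members by at least 1 bp, a share of 55.7% (exact 95% interval 54.5 to 56.9). Over all 70046 MHSs of replicate 1 the share was 61.9%, and for distal MHSs it was 55.2% (5569 of 10081), close to that of members. For upstream-only MHSs it was 66.4% (10519 of 15837). Downstream-only MHSs therefore recurred less often than upstream-only MHSs, with a difference of −10.7 percentage points (95% interval −12.1 to −9.32, two-sided Fisher's exact test, p = 1.24e-51), and the sign was the same on 5 of 5 chromosomes. It was −6.50 when the rule was applied to replicate 2 and −6.28 for MHSs of at least 100 bp. MHSs that share libraries and neighbours are not independent replicates, so the p-value measures counting error over sites only. The difference went with length. Within each of 6 length classes the downstream-only and upstream-only shares differed by −1.14 to 0.77 percentage points, with every 95% interval of the difference including 0. At most 75 bp, 18.8% of downstream-only MHSs and 18.7% of upstream-only MHSs overlapped replicate 2, above 150 and up to 250 bp 81.1% of each did, and above 400 bp 99.5% and 99.6% did. Weighted to the same lengths, the difference was −0.15 percentage points (95% interval −1.52 to 1.21). Among sites wholly outside gene bodies it was −0.09, with 52.3% of downstream-only and 52.4% of upstream-only MHSs overlapping replicate 2. Within classes of A/T content the difference stayed, at −15.5 percentage points below 60% A/T and −3.78 at 75% A/T or more.

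**Figure D3:**
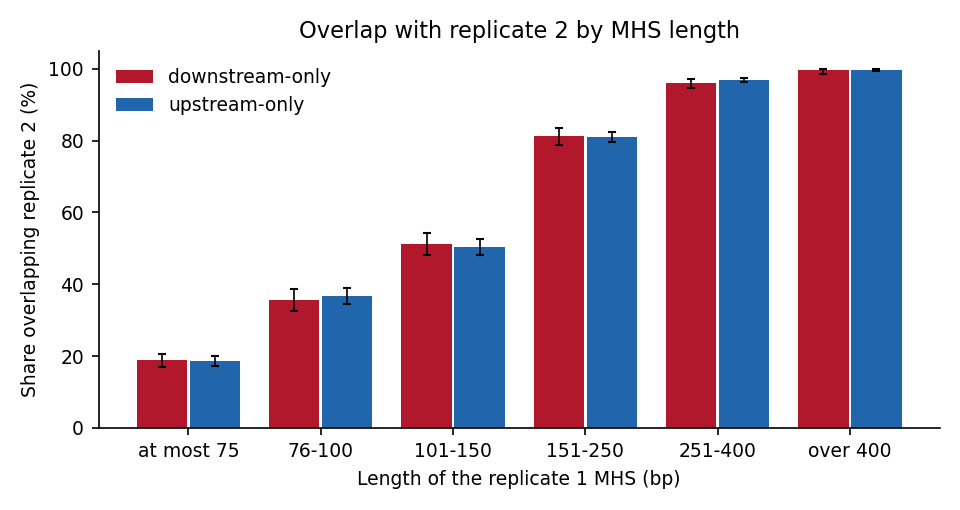
Share of replicate 1 MHSs that overlapped a replicate 2 MHS (y axis, %) by the length of the replicate 1 MHS (x axis, bp), for downstream-only (red) and upstream-only (blue) MHSs, with exact 95% binomial intervals. The bars of each pair are level, at 18.8% and 18.7% for the shortest sites and 99.5% and 99.6% for the longest.

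The overlap of 1 bp that defined recurrence also bounds how far partners can lie apart, so their positions are a description. The replicate 2 partner was itself downstream-only for 3425 of the 3706 overlapping members (92.4%), and in 180 cases its midpoint lay in a gene body. Midpoints differed by a median of 43 bp, with an upper quartile of 82 bp, and with a reciprocal overlap of at least 50% required, 35.1% of all members recurred. Overlapping members had a median length of 212 bp, and their partners 215 bp, while members without overlap had a median of 74 bp. The recurring share did not follow distance from the gene end, at 54.8%, 56.5%, 55.7% and 56.8% in the successive 250-bp steps. Between convergent genes 55.0% of members overlapped replicate 2 (1613 of 2933), and between tandem genes 56.2% (2092 of 3720). That difference of −1.24 percentage points (95% interval −3.65 to 1.16) did not pass a two-sided Fisher's exact test (p = 0.320), and its sign was negative on 3 of 5 chromosomes, with −9.53 on chromosome 2 and 3.27 on chromosome 4. In the other direction, 84.1% of the 4316 downstream-only MHSs of replicate 2 met a site of replicate 1.

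Base composition separated the recurring members from the rest more than it separated gene ends from promoters. Downstream-only MHSs averaged 70.7% A/T (SD 6.96, n = 6654) and upstream-only MHSs 70.01% (SD 6.74, n = 15837), a difference of 0.68 percentage points (SE 0.10) that was positive on 5 of 5 chromosomes. This small difference turned to −0.23 when upstream-only MHSs were weighted to the same lengths and to −0.57 among sites wholly outside gene bodies. Against stretches of equal length starting 500 bp away on either side, downstream-only MHSs were 4.20 percentage points richer in A/T (SE 0.10, 5 of 5 chromosomes). Against stretches 250 bp away the difference was 2.53, and at the midpoint itself A/T content was 68.7%, against 70.3% at 200 bp from it. The stretches were not kept out of gene bodies, and members lay a median of 334.5 bp from the TTS. At 500 bp the flanks of members averaged 66.5% A/T. The excess was not particular to gene ends. Upstream-only MHSs averaged 70.01% against 65.9% in their flanks, and MHSs with a midpoint in a gene body 67.8% against 63.7%. MHSs both upstream of one gene and downstream of another averaged 69.2% against 63.3%. Distal MHSs averaged 70.7% A/T and their flanks 70.6%, so the excess was not shared by sites far from genes. In replicate 2 the sign for downstream-only MHSs was reversed, with 65.5% A/T in the sites and 66.1% in their flanks (difference −0.55, 95% interval −0.74 to −0.35). Within replicate 1 the overlapping members averaged 67.8% A/T and those without overlap 74.3%. Around the midpoint, A/T content was 65.9% in overlapping members and 72.3% in members without overlap, and 60.7% in the downstream-only MHSs of replicate 2, while 200 bp away these values were 70.1%, 70.6% and 70.2%. MNase cuts A/T-rich DNA more readily, and its part in the difference between the libraries was not tested.

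**Figure D4:**
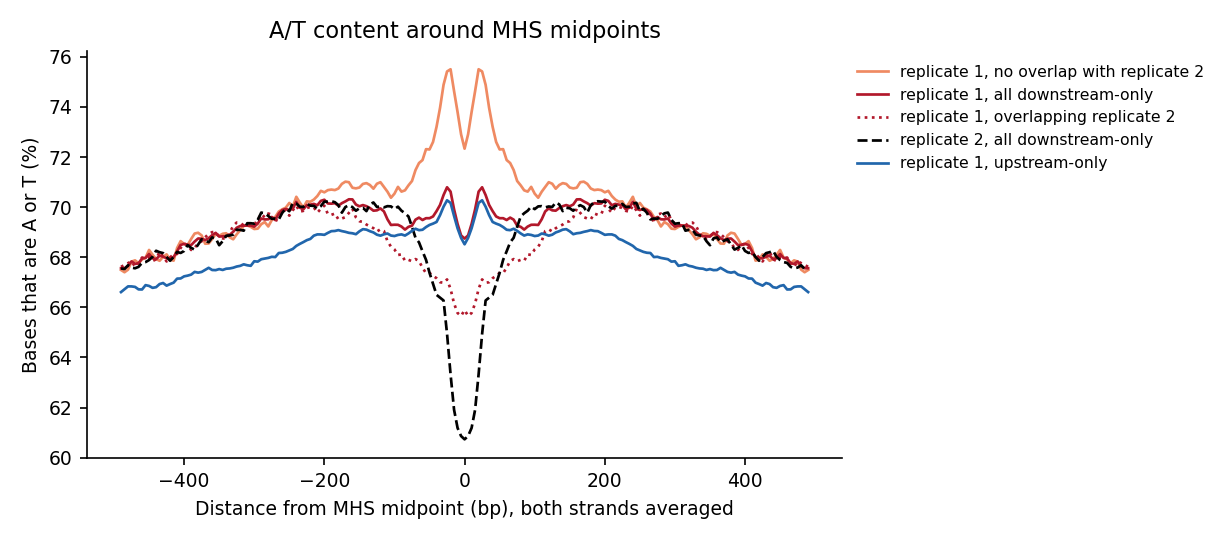
Share of bases that are A or T (y axis, %, running mean over 11 bp, both strands averaged) by distance from the MHS midpoint (x axis, bp) for downstream-only MHSs without overlap in replicate 2 (orange), all downstream-only MHSs of replicate 1 (red), those overlapping replicate 2 (red, dotted), downstream-only MHSs of replicate 2 (black, dashed) and upstream-only MHSs of replicate 1 (blue). Sites without overlap peak above their surroundings, while overlapping sites and those of replicate 2 dip, to 65.9% and 60.7% at the midpoint.

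The hexamers marked in the sequences above followed the same split. TGGGCC stood on either strand within 50 bp of the midpoint in 488 of the 3706 overlapping members (13.2%, exact 95% interval 12.1 to 14.3) and in 31 of the 2948 members without overlap (1.05%, 0.72 to 1.49). Upstream-only MHSs that overlapped replicate 2 held it in 14.8% (14.1 to 15.5). Over all members it stood in 7.80%, against 10.2% of all upstream-only MHSs, 7.92% of all MHSs and 0.73% of 38986 tiles of the same length from the same downstream DNA that held no MHS of either library. The downstream-only MHSs of replicate 2 held it in 11.7%. CACGTG was in 3.67% of overlapping members (3.09 to 4.33), 5.27% of overlapping upstream-only MHSs (4.85 to 5.71), 0.61% of members without overlap and 0.62% of the MHS-free tiles. Over all members it stood in 2.31%, against 3.83% of all upstream-only MHSs. Over that length the overlapping members were 66.6% A/T and the tiles 69.9%, so the shares are also given at like composition. Among windows below 65% A/T, TGGGCC was in 23.6% of overlapping members (350 of 1483), 3.86% of members without overlap (10 of 259), 24.3% of overlapping upstream-only MHSs and 2.02% of tiles. At 65 to 70% A/T these shares were 9.24% (7.58 to 11.1), 2.32%, 14.9% (13.6 to 16.3) and 0.66%. The sets were compared at like A/T content but not at like length, and overlapping members were longer (median 212 bp) than members without overlap (74 bp). No test was run on these shares, which describe letters and not bound factors.

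**Figure D5:**
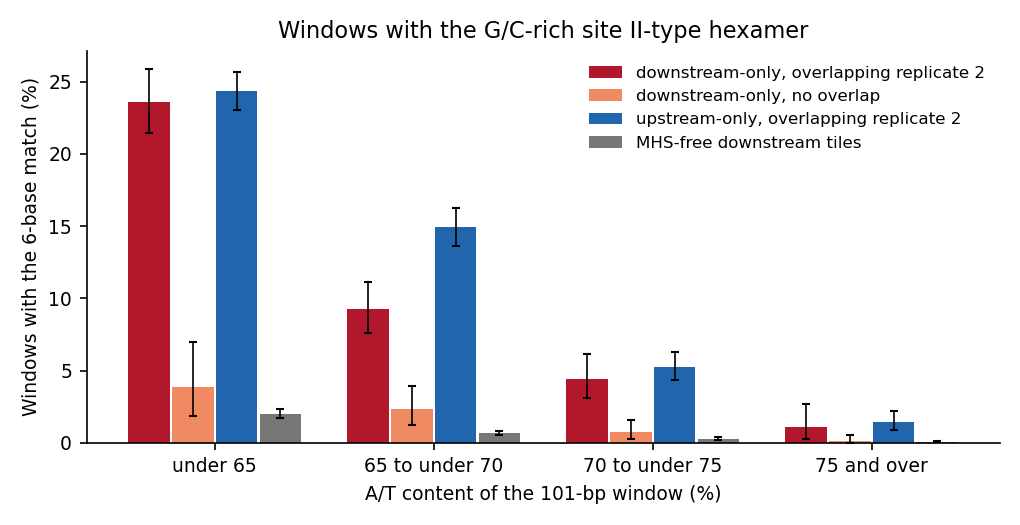
Share of windows of 50 bp on either side of the midpoint that held the TGGGCC hexamer on either strand (y axis, %) by the A/T content of the window (x axis, %), for downstream-only MHSs overlapping replicate 2 (red), downstream-only MHSs without overlap (orange), upstream-only MHSs overlapping replicate 2 (blue) and tiles of downstream DNA with no MHS (grey), with exact 95% binomial intervals. Below 65% A/T the shares were 23.6%, 3.86%, 24.3% and 2.02%.

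The other short motifs differed less as a ratio between members and tiles, although some differed by more percentage points than CACGTG did. The polyadenylation signal AATAAA was on either strand in 32.2% of members, 35.7% of upstream-only MHSs, 32.7% of all MHSs and 28.9% of tiles. On the strand of the gene that ended there it stood in 17.7% of members and on the opposite strand in 17.5%. The midpoints lie beyond the TTS, while the signal of the ending transcript lies before it. For 661 members the midpoint was 1 to 50 bp from the TTS, so that their windows reached back into the gene. Members without overlap held it in 38.4% and overlapping members in 27.3%, in the order of their A/T content. TATAAA, the TATA box core, was in 28.1% of members, 28.2% of upstream-only MHSs and 21.9% of tiles. CCAAT, bound by NF-Y, was in 22.3%, 24.4% and 18.9% of these sets, and TTGAC, the W-box core of WRKY factors, in 22.3%, 22.8% and 18.1%. AAACCCT, the telo-box, was in 1.28%, 1.88% and 2.13%. AAAAAAAA on either strand was in 11.1%, 12.8% and 11.9%. AATAAA and TATAAA share the letters ATAAA, so that their counts are not separate.

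Members often came in groups. The 6654 members fell into 3865 gaps between neighbouring genes. Of these gaps, 2113 (54.7%) held 1 member, 1063 held 2, 449 held 3 and 240 held 4 or more. Within a gap, neighbouring midpoints lay a median of 288 bp apart (quartiles 182 and 454 bp, 2789 pairs). The fullest gap was the 1482 bp between MEE34 (AT3G11270), a proteasome lid subunit of the MPN family, and the facing homeodomain-like gene AT3G11280 (chr3:3531725-3533206). It held 8 members of 70 to 181 bp, 902 bp in all. Of these, 6 overlapped replicate 2, in which they met 3 MHSs, so sites that were apart in replicate 1 were joined there. The next were the 3533 bp between AT3G63230 and the DNase I-like gene AT3G63240 (chr3:23360339-23363871), with 7 members of which 5 overlapped replicate 2, and the 1963 bp between the cation/proton exchanger gene CHX14 (AT1G06970) and AT1G06980 (chr1:2140976-2142938), with 7 members of which 4 overlapped.

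The longest members ran across the gene end itself. The longest, 1451 bp at chr2:16560836-16562286, had its midpoint 227 bp beyond the end of the aspartyl protease gene AT2G39710 and reached into that gene, whose end is at 16561788. The replicate 2 partner was 948 bp long. A member of 1334 bp (chr4:16710183-16711516) began inside the aquaporin gene PIP3 (AT4G35100, end at 16710407) and had its midpoint 442 bp beyond it, with a partner of 781 bp. A member of 1310 bp (chr5:22644185-22645494) lay beyond the ribosome biogenesis gene OLI2 (AT5G55920, end at 22645448), with its midpoint 609 bp from the end and a partner of 232 bp. The 50 bp on either side of these midpoints were 56.4%, 74.3% and 78.2% A/T and are shown to set the mixed composition of long sites beside the short ones above.
AT2G39710: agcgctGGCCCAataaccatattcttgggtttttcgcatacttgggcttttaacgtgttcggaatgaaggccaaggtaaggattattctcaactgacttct
PIP3: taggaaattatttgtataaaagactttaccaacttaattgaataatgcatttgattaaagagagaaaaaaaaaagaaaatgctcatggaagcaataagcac
OLI2: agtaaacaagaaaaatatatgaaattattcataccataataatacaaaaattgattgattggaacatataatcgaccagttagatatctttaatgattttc

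Several Arabidopsis genes are known for regulatory DNA or antisense RNA beyond their end, and 8 of them were looked up. CBF1 (AT4G25490), the cold-response activator whose downstream DNA is transcribed into the antisense RNA SVALKA, held 2 members, both recurring. They lay 62 bp from the TTS (chr4:13021619-13021817, 199 bp, partner 138 bp) and 246 bp from it (chr4:13021495-13021574, 80 bp, partner 96 bp). TFL1 (AT5G03840), which keeps the inflorescence indeterminate, held 1 member 931 bp from the TTS (chr5:1023530-1023609, 80 bp) with a partner of 215 bp, and replicate 2 alone had another of 86 bp at 48 bp. CLV3 (AT2G27250), the stem cell signal peptide, held 1 of 65 bp at 428 bp (chr2:11664518-11664582), and FT (AT1G65480), the flowering signal, 1 of 62 bp at 874 bp (chr1:24334843-24334904). Neither of these was met by an MHS of replicate 2. The trichome regulator GL1 (AT3G27920, listed as MYB0) and the imprinted MADS gene PHE1 (AT1G65330) had no MHS in the 1000 bp beyond their ends in either library. FLC (AT5G10140), the floral repressor with the COOLAIR antisense RNAs, had an MHS of 346 bp across its end (chr5:3173079-3173424, replicate 2 236 bp). DOG1 (AT5G45830), a dormancy regulator with an antisense RNA of its own, had 1 of 485 bp 659 bp beyond its end. Both were outside the rule, since the annotation places another gene or its upstream flank there. The sequences of the members at CBF1 (the nearer first, without the bases inside the gene), TFL1, CLV3 and FT show these candidate sites, and the capitals are again the hexamers above.
CBF1, 62 bp from the TTS: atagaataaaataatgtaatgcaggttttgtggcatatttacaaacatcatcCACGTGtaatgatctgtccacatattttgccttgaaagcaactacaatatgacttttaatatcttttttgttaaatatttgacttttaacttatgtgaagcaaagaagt
CBF1, 246 bp from the TTS: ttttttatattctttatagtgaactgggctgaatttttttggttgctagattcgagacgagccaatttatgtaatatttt
TFL1: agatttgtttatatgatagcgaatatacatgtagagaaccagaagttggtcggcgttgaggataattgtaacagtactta
CLV3: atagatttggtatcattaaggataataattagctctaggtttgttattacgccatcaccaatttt
FT: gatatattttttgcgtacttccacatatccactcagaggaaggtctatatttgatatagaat

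Of the 27444 protein-coding genes, 10533 had at least 100 bp that met the rule beyond their end. A member lay there in 4730 of them (44.9%) in replicate 1 and in 3528 (33.5%) in replicate 2. Both lists named 3109 genes, which is 65.7% of the replicate 1 genes and 88.1% of the replicate 2 genes. The share rose with the room beyond the gene, at 18.2%, 33.0%, 45.4% and 60.1% for genes with 100 to 249, 250 to 499, 500 to 749 and 750 to 1000 bp of such DNA. Shares of gene groups are therefore given with their median room, as counts with no test. They stand beside the 44.9% (replicate 1) and 33.5% (replicate 2) of all these genes, whose median room was 719 bp, and beside the shares above of genes with like room.

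Among genes for transcription factors, the bHLH and MYB groups had the highest shares. Their exact intervals (58.2 to 81.4 and 57.9 to 78.9) still included the 60.1% of genes with 750 to 1000 bp of room. The shares of the other groups lay near or below those of genes with like room. The NAC (34.7 to 62.0) and WRKY (29.3 to 61.5) intervals also included 60.1%. A member lay beyond 46 of 65 bHLH genes (70.8%, replicate 2 55.4%), 56 of 81 MYB genes (69.1%, 50.6%), 69 of 115 homeobox genes (replicate 2 47.8%) and 20 of 35 AP2/ERF genes (57.1%, 48.6%), each with 930 to 1000 bp of median room. NAC genes had 27 of 56 (48.2%, 42.9%, median room 997 bp) and WRKY genes 18 of 40 (45.0%, 42.5%, 927 bp). MADS genes, which include the floral organ regulators, had 25 of 68 (36.8%, 22.1%, median room 640 bp). The longest recurring member of each group stood beyond the bHLH gene AT1G09250 (744 bp, partner 290 bp), MYB6 (802 bp, partner 428 bp), the homeodomain-leucine zipper gene HAT22 (891 bp, partner 257 bp), ERF-1 (548 bp), NAC2 (723 bp, partner 248 bp), WRKY11 (571 bp, partner 531 bp) and AGL6 (751 bp, partner 339 bp). WRKY11 is a negative regulator of basal defence and AGL6 a MADS gene of the floral meristem.

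Ribosomal protein genes had a higher replicate 1 share than genes with like room. Their exact interval (38.6 to 57.9) lay above the 33.0% of genes with 250 to 499 bp. The histone interval (19.2 to 74.9) included that 33.0%. The translation factor interval (31.5 to 63.9) included the 45.4% of genes with 500 to 749 bp. The photosystem (24.4 to 71.1) and heat shock (45.6 to 71.0) intervals included the 60.1% of genes with 750 to 1000 bp. Ribosomal protein genes had a member beyond 53 of 110 (48.2%, replicate 2 40.0%, median room 372.5 bp), translation factor genes beyond 19 of 40 (47.5%, 37.5%, 599 bp), photosystem and antenna genes beyond 9 of 19 (47.4%, 42.1%, 822 bp) and histone genes beyond 6 of 13 (46.2%, 53.8%, 284 bp). Heat shock and chaperone genes had 37 of 63 (58.7%, 38.1%, 894 bp). The longest recurring members here were 1157 bp beyond the DnaJ chaperone gene J11 (partner 724 bp), 665 bp beyond the L36e ribosomal protein gene AT5G02450 (partner 654 bp), 659 bp beyond the elongation factor gene AT1G07940 (partner 522 bp), 564 bp beyond the light-harvesting-like gene LIL3:2 (partner 328 bp) and 497 bp beyond the histone gene AT1G13370 (partner 454 bp). The first of these had its midpoint 193 bp from the TTS and the second 92 bp.

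Among other large families, F-box, pentatricopeptide repeat and NBS-LRR genes had the lowest shares. The pentatricopeptide repeat 95% interval (18.1 to 40.1) included the 33.0% of genes with 250 to 499 bp of room. F-box and NBS-LRR genes lay below the 45.4% of genes with 500 to 749 bp, and receptor-like kinase genes near it. The cytochrome P450 (35.0 to 55.8) and RING (35.3 to 49.9) intervals lay below the 60.1% of genes with 750 to 1000 bp. The peroxidase (42.2 to 72.3) and SAUR (48.0 to 78.4) intervals included it. F-box genes, the substrate adaptors of SCF ubiquitin ligases, had a member beyond 83 of 333 (24.9%, replicate 2 16.2%, median room 706 bp), pentatricopeptide repeat genes beyond 20 of 71 (28.2%, 23.9%, 421 bp) and NBS-LRR immune receptor genes beyond 16 of 56 (28.6%, 8.93%, 541 bp). RING ubiquitin ligase genes had 79 of 186 (42.5%, 33.3%, 810 bp), receptor-like kinase genes 31 of 69 (44.9%, 33.3%, 654 bp) and cytochrome P450 genes 43 of 95 (45.3%, 30.5%, 1000 bp). Peroxidase genes had 26 of 45 (57.8%, 53.3%, 935 bp) and the auxin-induced SAUR genes 27 of 42 (64.3%, 52.4%, 1000 bp). Among these, the longest recurring members stood beyond the auxin receptor gene AFB5 (571 bp, partner 602 bp), the RNA-editing factor gene REME1 (415 bp, partner 199 bp), RLM1, a TIR-NBS-LRR resistance gene against Leptosphaeria (531 bp, partner 333 bp), and CYP705A24 (671 bp, partner 408 bp). For the RING, receptor-like kinase, peroxidase and SAUR groups they stood beyond AT1G01660 (562 bp, partner 588 bp), AT1G75640 (677 bp, partner 642 bp), AT5G58400 (657 bp, partner 379 bp) and AT5G10990 (761 bp, partner 526 bp).

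Genes with a downstream-only MHS more often had an MHS in their own promoter. An MHS midpoint lay within 1000 bp upstream of the TSS in 3746 of the 4730 genes with a downstream-only MHS (79.2%) and in 3726 of the 5803 genes without one (64.2%). The difference was 15.0 percentage points (95% interval 13.3 to 16.7, two-sided Fisher's exact test, p = 7.32e-65), with the same sign on 5 of 5 chromosomes. It held at each amount of room, with 8.13, 10.8, 17.3 and 22.7 percentage points from the least to the most. Among genes with 750 to 1000 bp of room the shares were 79.0% (2445 of 3094) with a downstream-only MHS and 56.4% (1156 of 2051) without. In replicate 2 alone the difference was 20.1 percentage points.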

How the data were processed

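MH-seq of 2 seedling libraries was analysed. Per the labels and methods, the authors used Cutadapt for trimming, Bowtie2 for alignment to TAIR10 and Jazz for calling MHSs, library by library. Versions and the cut-off are not given in the sources used here. The deposited lists hold other values than counts, namely the start and end of each MHS. Calls depend on read depth, which the lists do not give, so a site missing from a list may be closed or undetected. The paper reports that its second library had more reads than the first. It also had a larger share from the chloroplast, a smaller fraction of reads in peaks and thus more background. The libraries therefore differed in quality, and the part of this in differences between their lists was not tested. The library labelled without a number was taken as replicate 1. RefSeq's TAIR10.1 annotation supplied gene bodies, TSSs and TTSs (37899 genes and pseudogenes, 27444 protein-coding), whose gene ends can differ from those used by the authors.

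Shares carry exact (Clopper-Pearson) 95% intervals and were compared with Fisher's exact test at 0.05, which treats sites as independent. Intervals cover counting of sites only. A/T means were compared with a normal 95% interval over sites. Genes named were the longest members, the fullest gaps, 8 genes with described regulation beyond their end, and the longest recurring member of each of 20 groups matched by product name. The members, lists and motifs were chosen with earlier results of these data known, and the spelling of some product patterns was widened, and that for histones narrowed, after a first count. Alternatives changed the distance limit, genes, overlap, length or library. Python 3.11.15, numpy 2.4.6, pandas and scipy 1.17.1 were used, and 12 of 12 tests on simulated or constructed data returned the known answer.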

Additional observations from a re-analysis of the deposited data

How the results depend on the processing

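Of 62 values recomputed under another setting, 44 kept their direction and their side of the threshold. Applying the rule to replicate 2 instead of replicate 1 gave 4316 members, 84.1% overlapping the other library, 33.5% of genes with a member, an A/T difference to upstream-only MHSs of 0.12 percentage points that no longer passed, and an A/T difference to the flanks that reversed to −0.55. With only MHSs wholly outside gene bodies, the overlap share was 52.3%, and the differences from upstream-only MHSs were −0.0874 in overlap and 1.41 in short sites, neither passing, and −0.57 in A/T, reversed. Weighting to equal lengths gave −0.15 in overlap, not passing, and −0.23 in A/T, reversed. The overlap share was 46.5% when 50% of the replicate 1 MHS had to be covered, 35.1% with reciprocal 50% overlap and 75.1% for MHSs of at least 100 bp. The share of genes with a member was 37.8% with a limit of 500 bp, 43.6% after merging MHSs at most 50 bp apart, 31.2% for MHSs of at least 100 bp and 46.7% when only protein-coding genes were considered. The cause of the reversals was not tested. The density ratio (0.576 to 0.691), the promoter difference (14.2 to 20.1 percentage points) and the difference between convergent and tandem members (−2.27 to −0.37, never passing) kept their calls under all alternatives run. For the density ratio these did not include sites wholly outside gene bodies. No paired analysis was possible because the libraries form 1 group.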
